A study of Mus musculus with 25 samples.

Results

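The mitochondrial genome is a small circular DNA held in many copies per cell. It encodes 13 proteins of the respiratory chain and ATP synthase, together with the 2 ribosomal RNAs (rRNAs) and 22 transfer RNAs (tRNAs) that translate them. All 37 of these genes had values among the 47069 genes of the deposited pituitary table, where they were taken by symbols that begin with mt-. The 13 protein-coding genes and the 24 others are described separately.

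The study profiled pituitaries of 25 hpg mice of both sexes. All animals carried the hpg/hpg genotype, a loss of the gene for gonadotropin-releasing hormone (GnRH), so the placebo animals lacked the hormone too. The 4 groups were 5 placebo females (animals 1 to 5), 6 GnRH females (6 to 11), 6 placebo males (12 to 17) and 8 GnRH males (18 to 25), each animal giving 1 library. Per the labels' protocols, GnRH (1 µg) or, in the placebo group, saline was given intraperitoneally each day for 10 days, with tissue taken 1 h after the last injection. The whole gland was sequenced, so a lower value from fewer cells or mitochondria and one from less RNA per cell cannot be told apart. Growth hormone (Gh) reached 21.09 to 21.92, and Fshb, the beta subunit of follicle-stimulating hormone, lay at 9.05 to 10.65 in placebo and 11.13 to 12.86 in GnRH animals without overlap. All 25 libraries matched their labelled sex by Xist and Ddx3y.

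Both strands of the mitochondrial genome are transcribed as long precursors. In many places tRNAs lie between the other genes, and their removal releases the messenger and ribosomal RNAs. Short poly(A) tails are then added to most mammalian mitochondrial messengers, and in some of them the tail completes a stop codon that the gene leaves unfinished. The genes read from the heavy strand are 12 of the 13 protein-coding genes, both rRNAs and 14 tRNAs, and mt-Nd6 and 8 tRNAs are read from the light strand. Endocrine cells rely on the products of these genes for the ATP that hormone synthesis and secretion consume.

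Because the libraries were selected with oligo-dT, the ends of the messengers are shown first. In the reference sequence of build GRCm38 (mm10, GENCODE M21), mt-Co3, mt-Nd4 and mt-Cytb end 1 base after their last whole codon. In the lines that follow, the last 30 bases of each gene are written 5′ to 3′, with that base, or the complete stop codon of mt-Co1 for comparison, in capitals.
mt-Co3, chrM:9361-9390, plus strand: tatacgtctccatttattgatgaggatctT
mt-Nd4, chrM:11515-11544, plus strand: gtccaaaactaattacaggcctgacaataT
mt-Cytb, chrM:15259-15288, plus strand: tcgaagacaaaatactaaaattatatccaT
mt-Co1, chrM:6843-6872, plus strand: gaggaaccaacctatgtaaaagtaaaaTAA
As annotated, the other 9 protein-coding genes end in a whole TAA or TAG codon. In mt-Nd1 and mt-Nd2 that codon is TAG, and its last 2 bases are shared with mt-Ti and mt-Tw on the same strand. The annotation does not show whether the messengers of these genes keep those bases.

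A second set is shown because these members differed most in level or in spread. The gene mt-Atp8 shares 43 bases, in capitals, with mt-Atp6 on the same strand. The 4 light-strand tRNA genes with the highest values and 2 heavy-strand tRNA genes are given for comparison in the sense of the RNA, with T for U.
mt-Atp8, chrM:7766-7969, plus strand: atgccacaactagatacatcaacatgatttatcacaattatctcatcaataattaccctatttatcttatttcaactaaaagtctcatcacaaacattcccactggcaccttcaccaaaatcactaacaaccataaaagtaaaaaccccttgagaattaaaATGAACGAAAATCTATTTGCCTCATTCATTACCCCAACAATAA
mt-Te, chrM:14071-14139, minus strand: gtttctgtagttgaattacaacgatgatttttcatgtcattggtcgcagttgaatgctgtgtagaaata
mt-Tn, chrM:5089-5159, minus strand: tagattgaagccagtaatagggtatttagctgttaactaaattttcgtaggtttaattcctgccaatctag
mt-Ts1, chrM:6870-6938, minus strand: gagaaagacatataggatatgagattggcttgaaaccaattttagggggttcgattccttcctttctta
mt-Tp, chrM:15356-15422, minus strand: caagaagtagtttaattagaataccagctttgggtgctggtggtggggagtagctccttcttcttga
mt-Tl1, chrM:2676-2750, plus strand: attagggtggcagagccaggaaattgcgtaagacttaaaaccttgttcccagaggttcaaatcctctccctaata
mt-Tf, chrM:1-68, plus strand: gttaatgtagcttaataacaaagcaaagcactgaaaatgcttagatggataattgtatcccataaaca

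Values are the deposited regularized-log (rlog) values, a log2 scale on which 1 unit is a doubling and low genes are drawn towards their own mean. On this scale the 13 protein-coding genes had means of 12.00 (mt-Nd3) to 17.60 (mt-Co1). The rRNAs mt-Rnr1 and mt-Rnr2, the RNAs of the small and large ribosomal subunits, had means of 12.16 and 13.06, although rRNA was depleted from the libraries per the labels' protocols. The 22 tRNA genes had means of -2.34 to 9.69. All 8 light-strand tRNA genes reached the mean of 3 set for testing, with means of 3.01 (mt-Tq) to 9.69 (mt-Ts1). Of the 14 heavy-strand tRNA genes, mt-Tl1 (mean 5.48) and mt-Tm (4.90) reached it. The other 12 lay at -2.34 (mt-Tf) to 2.26 (mt-Ts2) and were not tested. Just inside the minimum were mt-Tq at 3.01 and mt-Ta at 3.21, and just outside it mt-Ts2 at 2.26 and mt-Ti at 2.21. A tRNA gene of 59 to 75 bases is short, and none of these values says how much mature tRNA was present in an oligo-dT library.

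**Figure D1:**
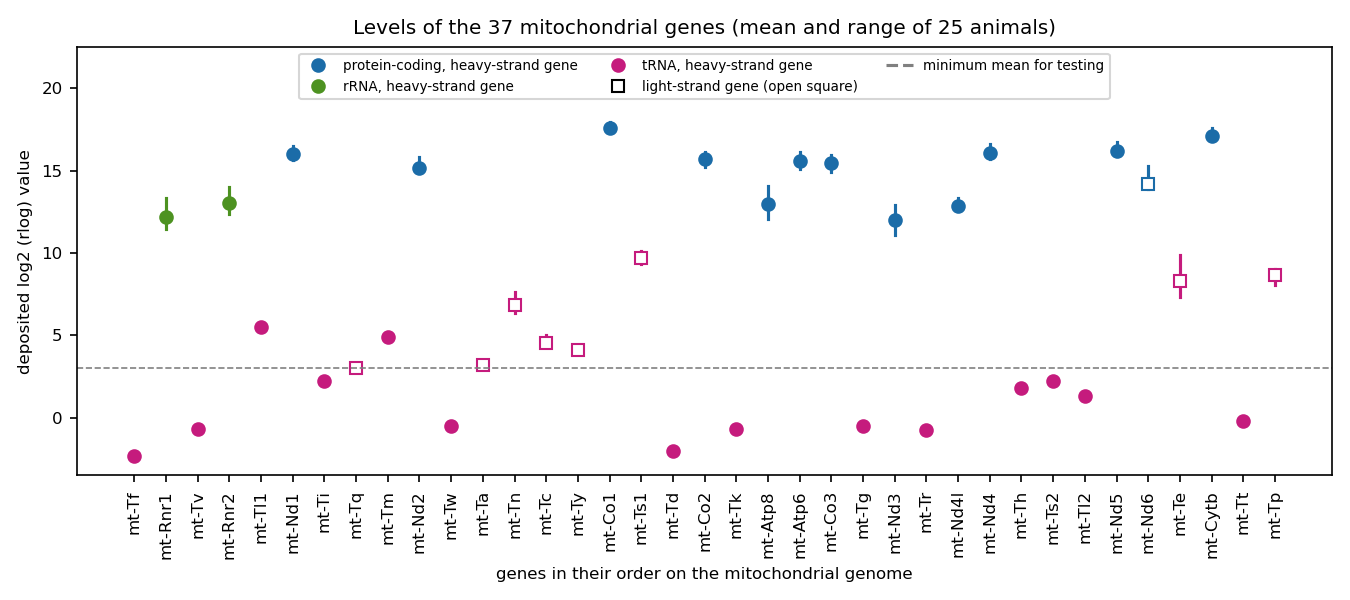
Deposited log2 (rlog) value (vertical axis) of each of the 37 mitochondrial genes in genome order (horizontal axis). Points are means and lines the range of 25 animals, open squares mark light-strand genes, and the dashed line at 3 is the minimum for testing, which all 8 light-strand and 2 of 14 heavy-strand tRNA genes reached.

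The light-strand tRNA genes with the highest means were mt-Ts1 (serine, 9.69), mt-Tp (proline, 8.64), mt-Te (glutamate, 8.29) and mt-Tn (asparagine, 6.85). The gene mt-Ts1 overlaps the end of mt-Co1 by 3 bases on the opposite strand. The gene mt-Te lies between mt-Nd6, also on the light strand, and mt-Cytb, and mt-Tp lies after mt-Tt at the end of the gene order. The strand setting of the counting is not given in the sources used here, so reads of the light-strand genes and reads of heavy-strand RNA across the same bases cannot be told apart. The same holds for the 14 bases that mt-Nd5 and mt-Nd6 share on opposite strands.

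To compare levels between genes, log2 of the gene length in kilobases was subtracted from each value. Per kilobase, the complex IV subunit mt-Co1 (16.97) and the complex III subunit mt-Cytb (16.93) were highest, and mt-Co1 was above mt-Cytb in 17 of 25 animals. They were followed per kilobase by mt-Co2 (complex IV, 16.25), mt-Atp6 (ATP synthase, 16.12), mt-Nd1 (complex I, 16.10) and mt-Co3 (complex IV, 15.81). The middle of the order held mt-Nd4 (15.59), mt-Nd5 (15.29), mt-Atp8 (15.28), mt-Nd6 (15.14) and mt-Nd2 (15.13). The complex I subunits mt-Nd4l (14.59) and mt-Nd3 (13.52) were lowest, so the order spanned 3.45 log2 units per kilobase, or 10.9-fold. Both are short genes, of 297 and 348 bases, and mt-Nd4l shares 7 bases with mt-Nd4 on the same strand. How counting depends on gene length or overlap was not tested, so their low places are not read as low messenger levels. Neighbours that did not differ beyond their spread between animals were mt-Co1 and mt-Cytb (difference 0.05, SD 0.08), mt-Atp6 and mt-Nd1 (0.02, SD 0.12), mt-Nd5 and mt-Atp8 (0.02, SD 0.46), mt-Atp8 and mt-Nd6 (0.14, SD 0.46) and mt-Nd6 and mt-Nd2 (0.01, SD 0.12). The other 7 steps held in at least 24 of 25 animals. Complex I members ranged from 16.10 (mt-Nd1) to 13.52 (mt-Nd3). Apart from mt-Nd1, all of them stood below mt-Co1, mt-Co2 and mt-Co3 of complex IV, with mt-Atp8 among them.

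Copies of mitochondrial DNA in the nuclear genome bear on these levels. A search of the annotated transcripts, at 90% identity or more over at least 100 bases, found 13 tested nuclear pseudogenes that match 10 of the 13 protein-coding members. Of these, 7 lie side by side on chromosome 1 between bases 24611535 and 24616197 (GRCm38), at 99.7 to 100% identity, and 3 lie on chromosome 2. In 4 of the 7 on chromosome 1 the pseudogene and its member had the same value in every animal to within 0.1. For mt-Co2 and Gm28661 both means were 15.70 and the widest gap in any animal was 0.00034, and for mt-Co3 and Gm28437 both were 15.46 with a widest gap of 0.0011. For mt-Nd4l and Gm10222 both were 12.84 (widest gap 0.0019), and mt-Nd3 (12.00) and Gm28438 (12.02) differed by up to 0.028. Gm10925 was 0.30 above mt-Atp6 (15.87 against 15.56). The other 2 on chromosome 1 were below their members, Gm28439 (100% identity) by 1.48 against mt-Nd4 and Gm29216 (99.8%) by 2.13 against mt-Co1. Both are partial copies, which match 876 of the 1378 bases of mt-Nd4 and 483 of the 1545 bases of mt-Co1. Values of pseudogenes and members were compared here without adjustment for length. The less similar copies on other chromosomes were far lower, down to 3.47 for Gm11408 against 14.20 for mt-Nd6 at 93.6% identity. Reads from bases that are identical in both places cannot be assigned to 1 of them, and the sources used here do not say how such reads were counted. The levels of members with such copies, and their places in the order per kilobase, are therefore uncertain. Of the 13 pseudogenes, 0 passed the test for GnRH in females, in males or averaged over the sexes. The shares over all genes were 0.0993%, 0.496% and 1.71%. For the 4 pseudogenes with the same values as their members, this repeats the tests of those members.

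**Figure D2:**
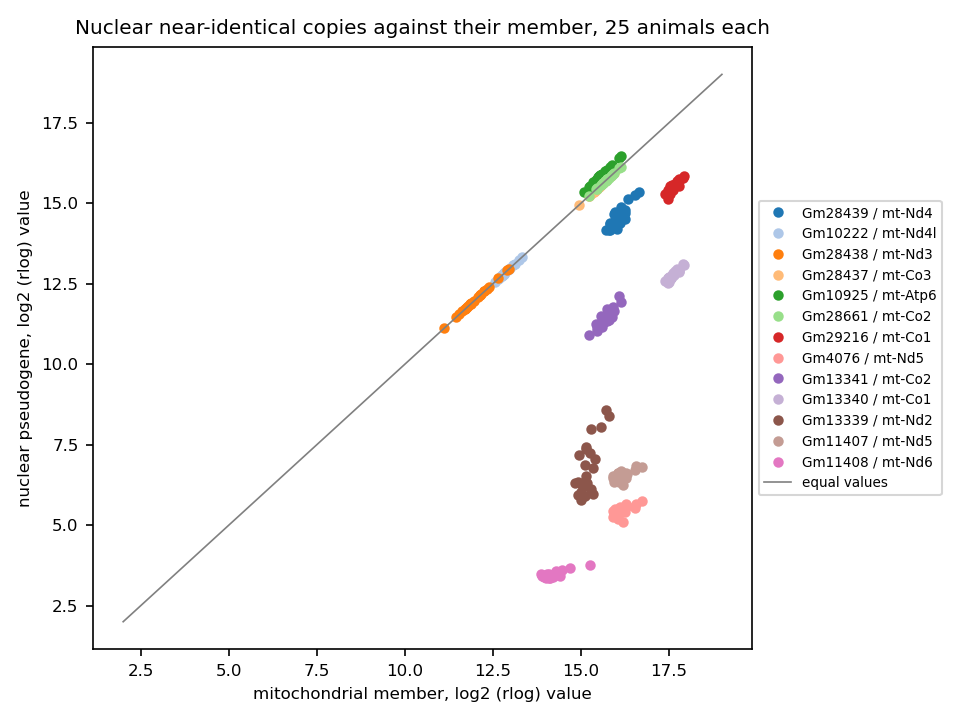
Log2 (rlog) value of each of 13 nuclear pseudogenes (vertical axis) against that of the most similar mitochondrial member (horizontal axis), 1 point per animal. The pseudogenes of mt-Co2, mt-Co3, mt-Nd4l and mt-Nd3 on chromosome 1 sit on the line of equal values, that of mt-Atp6 lies above it, and the others, Gm28439 and Gm29216 of chromosome 1 included, lie below it.

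GnRH against placebo asked whether repeated GnRH changed these transcripts in animals that make none of their own. No mitochondrial gene passed in either sex. The mean of the 13 protein-coding members was 15.17 ± 0.21 (SD, n = 5) in placebo females and 15.27 ± 0.31 (SD, n = 6) in GnRH females. It was 15.10 ± 0.29 (SD, n = 6) in placebo males and 15.07 ± 0.12 (SD, n = 8) in GnRH males. The ranges overlapped in both sexes: 14.92 to 15.48 against 14.83 to 15.76 in females, and 14.84 to 15.65 against 14.94 to 15.28 in males.

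In females, 0 of 13 protein-coding and 0 of 12 other tested members passed an adjusted p of 0.05 with limma, where 0.0993% of all 19141 genes tested did. At an unadjusted p under 0.05 there were 1 and 2 members, against 9.57% of all genes. Of the protein-coding members, 11 had positive and 2 negative differences, with a range of -0.32 to 0.26 and a median of 0.14. The median was 0.07 without animal 7 and 0.23 with array weights. Under quantile normalization it was 0.004, with 7 positive and 6 negative. Over all genes the median difference was 0 and 50.1% were positive. The 12 other members had a median of -0.01, with 5 positive and 7 negative. In males, 0 of 13 and 0 of 12 passed, against 0.496% of all genes, and 0 members had an unadjusted p under 0.05, against 6.42% of all genes. The male protein-coding differences ran from -0.11 to 0.00, 10 of them negative, where 48.5% of all genes were positive. Their median was -0.03, and its sign turned without animal 15 (0.075) and with array weights (0.028, 9 of 13 positive), and the other members had a median of -0.01. In neither sex did any of the 25 tested members separate the treated from the placebo animals, which 0.768% of all genes did in females and 0.402% in males.

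Single members show how narrow or wide these intervals were. The complex IV subunit mt-Co1 read 17.48, 17.61, 17.78, 17.40 and 17.51 in placebo females, and its lowest, median and highest values were 17.46, 17.75 and 17.92 in GnRH females. The groups overlapped, and the log2 difference was 0.15 (SE 0.09, adjusted p = 0.581), with a 95% interval from 0.984-fold to 1.25-fold on the rlog scale. In males its values were 17.43, 17.55 and 17.90 in placebo and 17.48, 17.57 and 17.67 in GnRH animals, with a 95% interval of 0.892 to 1.11-fold around a difference of -0.01 (adjusted p = 0.999). The interval for mt-Co1 was the narrowest of the 13 protein-coding genes in both sexes.

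The complex III subunit mt-Cytb, which carries electrons between ubiquinol and cytochrome c, had the smallest p of the protein-coding members in females. Its values were 16.91, 17.19, 17.25, 16.84 and 17.00 in placebo and 17.01, 17.30 and 17.57 (lowest, median, highest) in GnRH females. Although 4 of 6 treated females lay above every placebo female, the groups overlapped, and the difference of 0.24 (SE 0.10) had an unadjusted p of 0.0203 and an adjusted p of 0.447. Without animal 7 it was 0.18 (adjusted p = 0.697). In males mt-Cytb differed by -0.01 (adjusted p = 0.999).

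The 2 tRNA genes at an unadjusted p under 0.05 in females were mt-Tp, at 0.28 (SE 0.11, adjusted p = 0.445), and mt-Ts1, at 0.24 (SE 0.11, adjusted p = 0.492). Their male differences were 0.05 and -0.08, both with adjusted p = 0.999. The rRNAs differed by -0.02 (mt-Rnr1) and -0.16 (mt-Rnr2) in females, with adjusted p = 0.983 and 0.824, and by 0.00 and -0.01 in males. The widest interval was that of mt-Te, from 0.471-fold to 1.26-fold in females, which leaves both a large fall and a small rise possible for that gene.

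**Figure D3:**
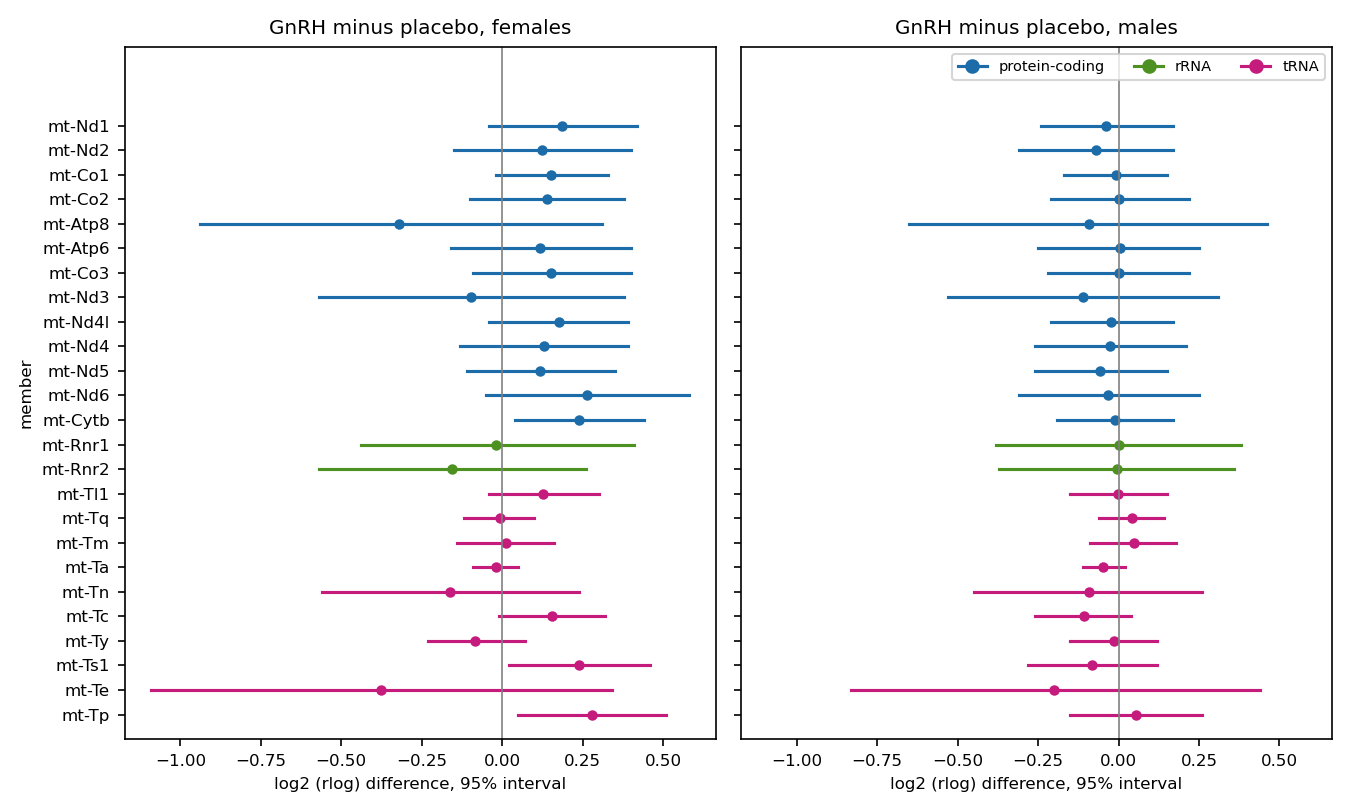
Log2 (rlog) difference, GnRH minus placebo, of each of the 25 tested members (vertical axis) with its 95% interval (lines), in females (left) and males (right). In females the intervals of mt-Cytb, mt-Ts1 and mt-Tp alone lie above 0 before adjustment, in males all include 0, and mt-Te has the widest.

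The GnRH difference in males minus that in females was negative for 12 of 13 protein-coding members, with a median of -0.16, where 50.3% of all genes were positive. Here 0 of 13 and 0 of 12 members passed, as did 0% of all genes. At an unadjusted p under 0.05 there were 0 protein-coding members and 2 others, mt-Tc (-0.26) and mt-Ts1 (-0.32), against 529 (2.76%) of all genes. The protein-coding median of this contrast was 0.01 without animals 7 and 15, and -0.098 under quantile normalization, with 8 of 13 negative. Averaged over the sexes, 0 of 13 and 0 of 12 passed against 1.71% of all genes. The averaged medians were 0.07 for the protein-coding and 0.01 for the other members, with 11 of 13 and 6 of 12 positive against 49.4% of all genes, and the smallest adjusted p was 0.37, for mt-Tp (difference 0.17, SE 0.08). Under quantile normalization the averaged protein-coding median was -0.01, with 5 of 13 positive.

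The sexes were compared within each treatment. In placebo animals, 7 of 13 protein-coding members were higher and 6 lower in males, the median was 0.01, and 0 of 25 members passed against 0.047% of all genes. That median was -0.012 under quantile normalization, -0.027 with array weights and -0.1 without animal 15. The largest value there was that of mt-Te, -0.69 (SE 0.35, adjusted p = 0.999), and 1 member, mt-Tp at 0.23, had an unadjusted p under 0.05, against 3.07% of all genes. No member separated the sexes there (0.345% of all genes did) or within GnRH (0.094%). Within GnRH animals all 13 protein-coding members had lower means in males, by 0.09 to 0.30 with a median difference of -0.20, against 50.1% positive over all genes. None of the 13 passed (smallest adjusted p = 0.81, mt-Nd5, -0.25, SE 0.10), where 0.0522% of all genes did, and 6 had an unadjusted p under 0.05, against 5.53% of all genes. The median was -0.12 without animal 7, and -0.135 under quantile normalization, where 11 of 13 were negative. Of the 12 other members 0 passed, 9 were negative and 1, mt-Tc at -0.21, had an unadjusted p under 0.05. The 13 genes are not 13 separate observations, since they moved together across animals.

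Animals of 1 group differed by more than the group means did. Animal 7, a GnRH female, had the highest value of its group for 13 of 13 protein-coding members and the highest of all 25 animals for 12. Its protein-coding mean of 15.76 was 0.62 above the mean of all animals, or 1.53-fold. Animal 15, a placebo male, was highest of its group for 13 of 13, at 0.50 above the mean of all animals (1.42-fold), and animal 3, a placebo female, likewise for 13 of 13 at 0.34 (1.26-fold). At the other end, animal 4, a placebo female, was lowest of its group for 13 of 13 members at -0.23, and animals 9 (GnRH female) and 17 (placebo male) lay at -0.32 and -0.30. High and low animals occurred in both treatments and both sexes. The GnRH males had the narrowest spread, from -0.21 to 0.13.

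The rRNAs moved with them. The mean rRNA deviation was 1.04 in animal 7, 0.63 in animal 15 and 0.51 in animal 3, against -0.70 in animal 9 and -0.50 in animal 14. Library values that could move with these deviations are given here, and their part in them was not tested. The shift of AT-rich against GC-rich nuclear genes was -0.03 in animal 7 and 0.03 in animal 15, within the range of -0.12 (animal 10) to 0.11 (animal 23) over all libraries. The shift of long against short nuclear genes was -0.086 in animal 7 and -0.087 in animal 15, in a range of -0.147 to 0.141. For the mean log2 levels of 12 lists with 40 markers of pituitary and other cell types, in which every marker weighs alike, animals 7 and 15 lay inside the range of the other 23 in all but 1 of 24 values, that of corticotrope markers in animal 15 (13.11 against a highest value of 13.05). Nuclear genes of complex IV, the partners of mt-Co1 to mt-Co3, were 0.21 and 0.17 above the mean in animals 7 and 15, inside the range of the others. Of the lists of nuclear mitochondrial genes, that of chaperones and proteases lay outside it in animal 7 (10.25 against 10.26 to 10.38).

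**Figure D4:**
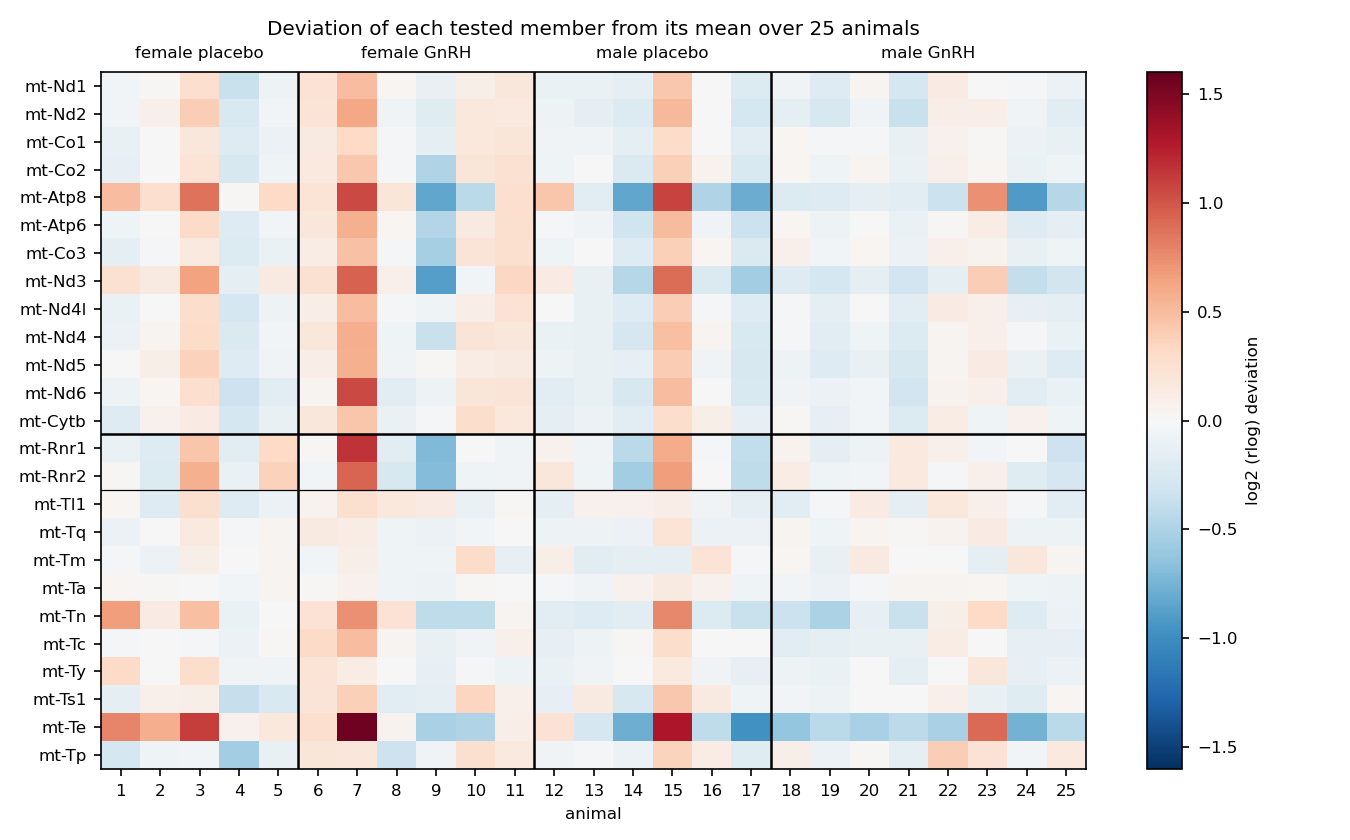
Colour shows the log2 (rlog) deviation of each tested member (vertical axis) from its mean over all animals, for each of 25 animals (horizontal axis) in the 4 groups. Animals 7, 15 and 3 are above the mean for all 13 protein-coding genes and both rRNAs, animal 9 is below it for 12 of 13 and both rRNAs, and the strongest colours are those of mt-Te in animals 7 and 15.

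The size of these shifts differed between members. The SD over all 25 animals was 0.14 for mt-Co1 and 0.18 for mt-Cytb, against 0.58 for mt-Atp8, 0.43 for mt-Nd3 and 0.70 for mt-Te. For the SD within groups, 68.9% of the tested nuclear genes were below mt-Co1, 99.8% below mt-Atp8 and 99.9% below mt-Te. The 3 protein-coding members with the widest spread, mt-Atp8, mt-Nd3 and mt-Nd6, were also the 3 with the lowest GC content (31.9%, 33.0% and 34.1%, in a range of 31.9 to 41.1%). The short ATP synthase subunit mt-Atp8 read 13.48, 13.26, 13.86, 13.01 and 13.31 in placebo females. Its lowest, median and highest values were 12.15, 13.19 and 14.04 in GnRH females, 12.16, 12.66 and 14.07 in placebo males and 12.08, 12.78 and 13.72 in GnRH males. All 4 groups overlapped.

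The glutamate tRNA gene mt-Te varied most of the 25 tested members. It read 9.07, 8.88, 9.40, 8.36 and 8.46 in placebo females. Its lowest, median and highest values were 7.78, 8.38 and 9.85 in GnRH females, 7.33, 7.95 and 9.59 in placebo males and 7.54, 7.82 and 9.20 in GnRH males. In the GnRH females and in both male groups 1 animal (7, 15 and 23) was well above the rest, and all 4 groups overlapped. The differences for GnRH were -0.38 in females (SE 0.35, adjusted p = 0.741) and -0.20 in males (SE 0.31, adjusted p = 0.999), and without animal 7 the female one was -0.65 (adjusted p = 0.673).

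Animal 23, a GnRH male, was raised unevenly. It was the highest of its group for 7 protein-coding members and above the mean of all animals for 11 of 13. It had 13.72 for mt-Atp8, 12.40 for mt-Nd3 and 9.20 for mt-Te, which were 0.73, 0.40 and 0.91 above the mean of all animals. The next protein-coding deviations were 0.13 for mt-Nd5 and 0.12 for mt-Atp6, and mt-Cytb, at 17.05, lay 0.07 below the mean. Its library also had the highest AT-rich against GC-rich shift of the 25, at 0.11. That shift was not such in animals 7 and 15, and its part in the values of animal 23 was not tested.

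**Figure D5:**
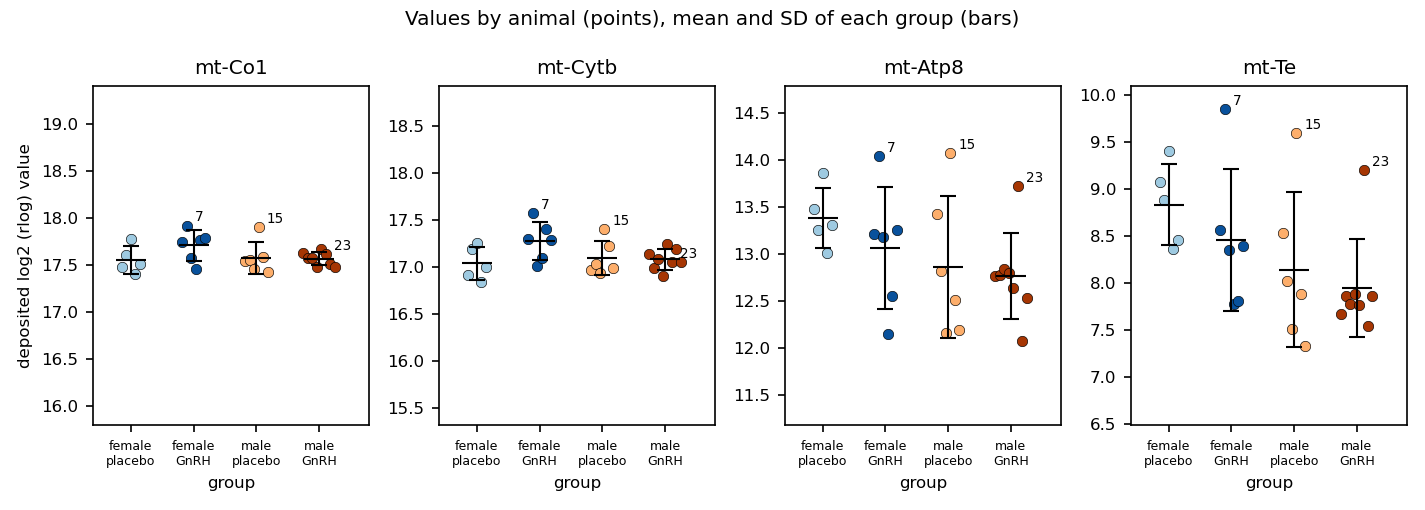
Log2 (rlog) values of mt-Co1, mt-Cytb, mt-Atp8 and mt-Te (vertical axes, each 3.6 units tall) by group (horizontal axis), with points for animals and bars for the mean and SD. Animals 7 and 15 lead their groups in all 4 panels, whereas animal 23 is high for mt-Atp8 and mt-Te only.

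After removal of the group means, most protein-coding members rose and fell together over the 25 animals. The 78 pairs had correlations of 0.42 (mt-Atp8 with mt-Cytb) to 0.99 (mt-Co2 with mt-Co3), with a median of 0.88, or 0.81 without animals 7 and 15. The values in a library share its scaling, and overlapping genes share bases. All 300 pairs of the 25 tested members were tested by two-sided permutation within groups (100000 resamples), with p-values adjusted over the 300. By r, 260 pairs had an adjusted p under 0.05, and by rho 228. Pairs of other genes were not tested in this way. These counts therefore do not show that moving together is particular to the mitochondrial genes. The pairs named here were chosen after their values were seen, as extremes or for comparison with them. The abundant messengers mt-Co1 and mt-Cytb had r = 0.88 and rho = 0.88, and r = 0.85 without the 2 animals farthest from the median of mt-Co1. The pair mt-Atp8 and mt-Te, on opposite strands and far apart on the circle, had r = 0.94 and rho = 0.90, and r = 0.91 without its 2 farthest animals. The rRNAs had r = 0.97 and rho = 0.94, and r = 0.96 without 2 animals. For each of these 3 pairs the permutation p was 1e-05 by r and by rho, the smallest this test can give, or 4.84e-05 and 4.48e-05 after adjustment.

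In contrast, mt-Te and its neighbour mt-Cytb had r = 0.50 (permutation p = 0.0238, adjusted 0.0289) and rho = 0.35 (permutation p = 0.127, adjusted 0.145). Without the 2 farthest animals r was 0.16, so this relation rests on those animals. For mt-Atp8 and mt-Cytb r was 0.42 (permutation p = 0.0699, adjusted 0.0783) and rho 0.27 (permutation p = 0.24, adjusted 0.261), with r = 0.09 without 2 animals. The methionine tRNA gene mt-Tm had r between -0.19 (mt-Atp8) and 0.34 (mt-Cytb) with the protein-coding members.

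The genes of the whole table most like the protein-coding mean over 25 animals, by r of values with the group means removed, were the nuclear copies Gm10925, Gm28439, Gm13341, Gm10222 and Gm28438 (r = 0.96 to 0.97). Gm10222 and Gm28438 nearly repeat the values of mt-Nd4l and mt-Nd3, and Gm10925 had r = 1.0 with mt-Atp6. These members are part of that mean, so a high r was built in for their copies and is no separate result. Leaving out such copies, a step added after their values were seen, the most similar were Gm26384 (r = 0.92), Fam92a, Tia1 and Ttc14 (0.90 each) and Slc25a36 (0.89), a carrier of the mitochondrial inner membrane. Their GC content was 31.8 to 41.2%. The most opposite were Mgrn1 (r = -0.91), Tmcc2 (-0.89), Supt6 (-0.88), Eif3c and Zfp146 (-0.87 each), with GC contents of 48.8 to 55.9%. These are the extremes of 19141 genes and were not tested.

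The respiratory chain is built from both genomes, and the nuclear partners gave the following counts. In females, 0 of 36 nuclear complex I, 0 of 9 complex III, 0 of 11 complex IV and 0 of 16 ATP synthase subunits passed, where 0.0993% of all genes did. Positive differences were found for 30, 8, 11 and 11 of these, with medians of 0.07, 0.07, 0.11 and 0.07, against 50.1% positive over all genes. These signs were not tested and are from the reported fit alone, without a check under quantile normalization. The genes of a list are not separate observations. In males 0 passed in each list, against 0.496% of all genes, with medians of -0.01, -0.02, 0.00 and 0.00. The 4 subunits of complex II, which has no mitochondrially encoded member, gave 0 calls in either sex and medians of 0.01 and -0.06. Examples in females were Ndufa6 of complex I at 0.21 (adjusted p = 0.449), Uqcr10 of complex III at 0.19 (0.467) and Cox6b1 of complex IV at 0.15 (0.57).

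Among genes that maintain or express the mitochondrial genome, 0 of 15 for transcription and replication, 0 of 10 translation factors, 0 of 8 nuclear regulators, 0 of 10 chaperones and proteases and 0 of 77 tested mitochondrial ribosomal proteins passed in females, in males or in the average. The shares over all genes were 0.0993% in females, 0.496% in males and 1.71% in the average. Of 24 genes for mitochondrial RNA processing and stability, 0 passed in either sex and 1 in the average. It was Nsun4, a methyltransferase that acts on mitochondrial rRNA, which rose by 0.17 (SE 0.04, adjusted p = 0.0165). Its differences were 0.14 in females (adjusted p = 0.449) and 0.20 in males (adjusted p = 0.0938). It passed in all 34 other fits, with adjusted p between 0.00375 and 0.0386. For comparison in the same libraries, 0 of 19 immediate early genes passed in females. Differences were positive for 15 in females (median 0.11) and 19 in males (median 0.53). The female differences of Atf3 (1.98, adjusted p = 0.135), Klf10 (0.47, 0.135) and Nr4a3 (1.00, 0.271) stood beside male ones of 2.18, 0.51 and 1.44. Atf3 lay at 6.06 to 6.32 in placebo and 6.55 to 9.26 in GnRH females. In males 3 passed, all higher with GnRH, Klf10, Nr4a3 and Atf3 (2.18, adjusted p = 0.0172), against 0.496% of all genes. In the average these and Fosb passed, against 1.71%. Atf3 missed the threshold in 4 of 35 other fits, among them those without placebo males 12 (adjusted p = 0.0504) and 14 (0.0546).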

How the data were processed

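Polyadenylated pituitary RNA from 25 mice was sequenced, 1 library each. The tools bcl2fastq, STAR and featureCounts and the build mm10 appear in the labels, per the submitters' processing notes. For the versions, the strand setting and the handling of reads with several matches, the sources used here give no detail. The deposited values are log2 values that the authors made with the regularized-log transformation, per the name of the table; it scales libraries and shrinks low genes, so their differences are understated. No counts were used, so the libraries' depth is not known and counting intervals were not made. The design text gives 5 to 7 replicates per condition, and the labels, which place 8 in male GnRH, were followed. Nothing states a batch.

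The 19141 genes whose mean reached 3 entered a linear model in limma 3.58.1 (R 4.3.3): 1 mean per group, 25 libraries, 21 residual degrees of freedom, a variance trend, 6 contrasts, two-sided tests and Benjamini-Hochberg adjustment over all genes tested. An adjusted p is from that fit unless its sentence names a permutation test, animals left out or other fits. The test was checked on simulated data in which each gene varied independently. That check does not cover genes that move together, as these members do. The p-values of the fit set a difference between groups against the spread of animals within groups, estimated in part from all genes tested. The permutation p-values set a correlation against those found after animals were shuffled within groups. Positions and sequences are from GRCm38 (GENCODE M21); nuclear copies were found with blastn 2.17.0. GC content was known for 99.4% of 19116 nuclear genes. The members, lists and naming rule (all members; the most similar genes; for each list the 2, or for immediate early genes 4, smallest p) were chosen with earlier results of these data known. Lists held 1 symbol that was not found, Ndufb1-ps. Libraries correlated at 0.992 to 0.998. The alternatives were 8 settings, leaving out each animal, and 2 settings added after seeing the data.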

Additional observations from a re-analysis of the deposited data

Results flagged for a closer look

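In groups of 5 to 8 animals, the gap between the highest or lowest value and the next was compared with Dixon's critical value for each of the 25 tested members. Of 100 such groups 16 passed, where about 5 would by chance, and members that move together are not separate cases. Animal 15, a placebo male, accounted for 10 of them and lay far above the other placebo males. Its protein-coding values were 17.90 for mt-Co1, 16.46 for mt-Nd1, 15.70 for mt-Nd2, 16.57 for mt-Nd5, 14.69 for mt-Nd6, 13.24 for mt-Nd4l and 16.07 for mt-Atp6. Its tRNA values were 7.62 for mt-Tn, 4.84 for mt-Tc and 3.23 for mt-Tq. Animal 7 lay far above the other GnRH females for mt-Nd5 (16.73), mt-Nd6 (15.25) and mt-Te (9.85). Animal 23 lay far above the other GnRH males for mt-Atp8 (13.72), mt-Nd3 (12.40) and mt-Te (9.20).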

How the results depend on the processing

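Across 8 planned settings, 25 fits that each left out 1 animal and 2 settings added after seeing the data, 0 of 5170 values of mitochondrial members passed the threshold; the smallest adjusted p was 0.0624, in the contrast averaged over the sexes. The sign of the difference was another than in the reported fit for 262 of these uncalled values. Leaving out 1 animal moved the protein-coding median to between 0.072 (without animal 7) and 0.226 (without animal 9) in females and to between -0.067 (without animal 17) and 0.075 (without animal 15) in males. It moved the median to between -0.251 and -0.083 for the difference of the effects, -0.28 and -0.116 for sex within GnRH, -0.1 and 0.079 for sex within placebo, and 0.03 and 0.112 for the average. Under quantile normalization the protein-coding median was 0.004 in females, -0.06 in males and -0.01 in the average, and with array weights 0.23, 0.028 and 0.137. The counts over all genes moved more. With no filter on low values 7 genes passed in females and 42 in males; with array weights 62 passed in females, 239 in males and 942 in the average; with the GC shift of each library as a covariate 37 passed in females. Leaving out 1 animal gave 4 (without animal 6) to 67 (without animal 10) in females, 46 (without animal 14) to 153 (without animal 19) in males, 235 to 389 in the average and 8 to 17 for sex within GnRH. Depth is unknown, and the shrinkage of low values limits what the tRNA genes can show. No paired analysis was possible because no replicate number is shared between groups.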
